A study of Homo sapiens with 6 samples.

Results

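The HOX genes encode homeodomain transcription factors and lie in 4 clusters, HOXA to HOXD, on separate chromosomes. Their RNA was compared in 2 sublines, PC-3/Mc against PC-3/S, of the human prostate cancer cell line PC-3, itself started from a metastasis in bone. Members were all probe sets of the array annotated to a single symbol made of HOX, a cluster letter and a number. The rule found 44 probe sets of 28 genes, out of 54675 probe sets on the array and 39 HOX genes in RefSeq (assembly GRCh38.p14). All 10 genes of cluster B and all 9 of cluster C were measured, 8 of the 9 of cluster D and, of the 11 in cluster A, HOXA2 alone. The other 11 genes, HOXD3 and the rest of cluster A, are not analysed here.

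HOX genes carry positional information along the body axis. Within a cluster the genes stand in the order of their paralog numbers, low numbers being active at anterior and high numbers at posterior levels, and genes of the same number in different clusters descend from a common ancestor. Adult cells keep part of the code of the region they came from, and the prostate, a posterior organ, is known for group 13 genes, above all HOXB13. HOX proteins bind DNA together with homeodomain partners of the TALE class (PBX, MEIS, PKNOX), and Polycomb and Trithorax complexes hold their clusters silent or active.

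Total RNA of cells taken before confluence was hybridised to 6 one-colour oligonucleotide arrays, 3 labelled as biological replicates of each subline. The labels name no genotype, treatment or passage that separates the sublines, and do not say whether replicates were separate cultures, so the p-values cover the spread among these 6 arrays alone, and that spread may be technical. Values are log2 expression as deposited, differences take PC-3/Mc relative to PC-3/S (negative where PC-3/Mc is lower), and n = 3 arrays per line throughout. Array medians ran from 4.98 to 5.09, and correlations between arrays were 0.995 to 0.997 within a line and 0.949 to 0.953 between lines. Of 8 measured prostate epithelium and PC-3 identity genes, 3 were higher in PC-3/Mc, namely KRT8 (9.81 and 8.78), KRT18 (12.48 and 11.32) and EPCAM (11.88 and 6.44). KRT19 (11.28 and 11.76) and TMPRSS2 (5.84 and 6.24) were lower, and KLK2 (5.37 and 5.49), KLK3 (6.39 and 6.73) and CTNNA1 were not called. The measured leukocyte markers (PTPRC, CD3E, CD14) averaged at most 4.83. Of 5 endothelial markers 1 was lower in PC-3/Mc (KDR, 4.06 and 6.23) and 1 higher (PECAM1, 7.18 and 6.58), with CDH5, VWF and TIE1 averaging at most 4.99. Of 5 fibroblast markers 3 were lower, COL3A1 (4.28 and 6.21) the most, and 1 higher, and the part of these genes in the HOX differences was not tested. In bulk RNA, fewer expressing cells and less RNA per cell cannot be told apart.

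A reading needs a floor, since detection calls were not used here. CTNNA1, known to be deleted in PC-3, read up to 5.18 on its 5 probe sets, and readings no higher than that may be background. A fold against a line at this floor is a lower bound, computed with each of its arrays lifted to 5.18. By this measure 13 of the 28 HOX genes were at or under the floor in both lines, 6 were above it in both, 8 in PC-3/S alone and HOXD13 in PC-3/Mc alone. Of all 19775 genes, 34.8% were at or under the floor in both lines.

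**Figure D1:**
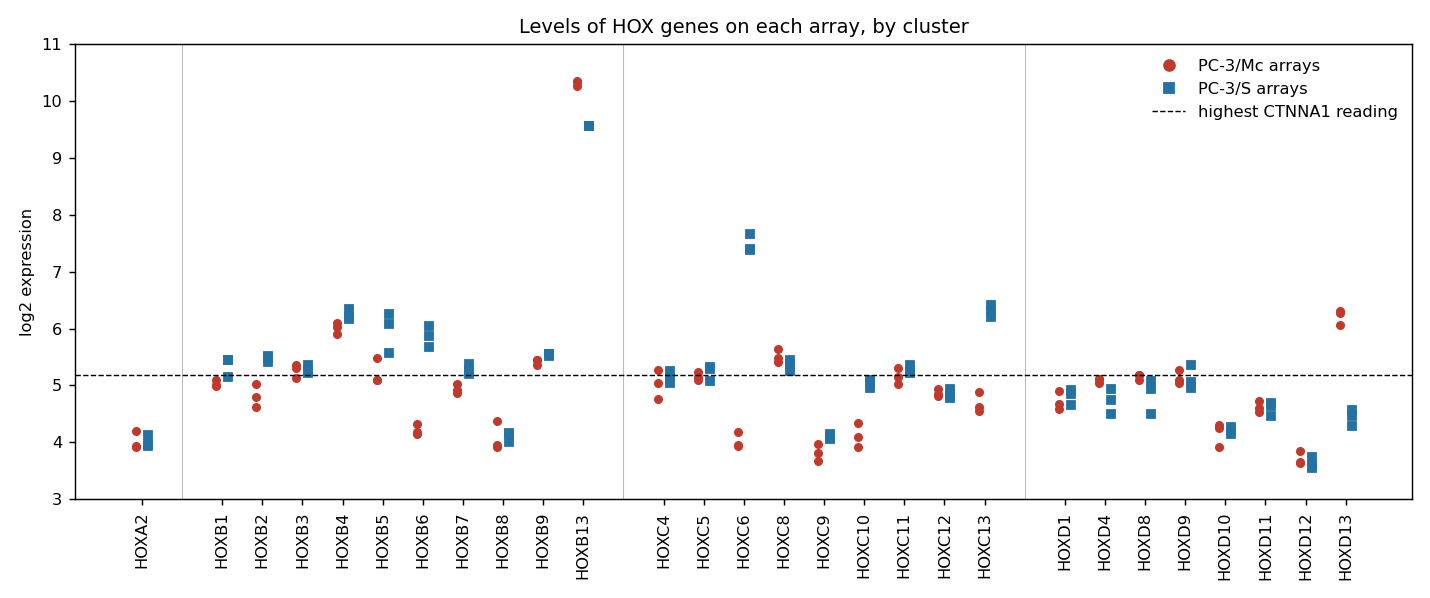
Log2 expression of the 28 HOX genes (horizontal axis, by cluster) on each array; red circles are the 3 PC-3/Mc arrays, blue squares the 3 PC-3/S arrays, and the dashed line is the highest CTNNA1 reading, 5.18. HOXB13 stands far above the line in both sublines, and HOXD13 stands above it in PC-3/Mc alone. HOXC6, HOXC13 and HOXB6 are among the 8 genes with a mean above it in PC-3/S alone.

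HOXC6, HOXB6 and HOXC13 were lower in PC-3/Mc by a measured difference of at least 1 on the log2 scale, and HOXD13 was higher by as much. HOXB13 was also higher, with a smaller difference on a strong signal. In all, 10 of 28 HOX genes were lower (35.7%), 3 higher (10.7%) and 15 not called at a limma adjusted p under 0.05. Among all genes tested, 45.9% were called, 22.7% lower and 23.2% higher. The share of HOX genes called in either direction (46.4%) was therefore that of the background. With a measured difference of at least 2-fold (1 on the log2 scale), 3 HOX genes were lower and 1 higher, where 11.5% of all genes were called at that size, 5.58% lower and 5.88% higher. The median difference of the 28 genes was -0.08, and that of all genes -0.03. Arrays of one line all lay above those of the other for 15 of the 28, against 53.1% of all genes. With each array centred on its median, 8 HOX genes were lower and 4 higher. With _s_at and _x_at probe sets dropped, types that can match several transcripts or genes, 24 HOX genes remained and 5 were lower, and without genes below the 40th percentile of level 8 remained and 4 were lower.

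HOXC6, a mid-cluster gene whose RNA is measured in urine tests for prostate cancer, read 3.94, 3.95 and 4.18 on the PC-3/Mc arrays and 7.39, 7.40 and 7.67 on the PC-3/S arrays. All PC-3/Mc readings were under the floor and all PC-3/S readings far above it. The difference was -3.46 ± 0.10 (SE; limma adjusted p = 9.4e-10), or at least 4.95-fold lower in PC-3/Mc. With the median of all genes, 5.98, as the floor the bound was 2.84-fold. HOXC6 has a single probe set, of the type ending in _s_at, which can match several transcripts.

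HOXB6, the paralog of HOXC6 in cluster B, read 4.15, 4.18 and 4.32 in PC-3/Mc against 5.68, 5.87 and 6.04 in PC-3/S. The groups did not overlap, and the difference of -1.65 ± 0.10 (limma adjusted p = 2.5e-07) corresponds to at least 1.61-fold. With the median of all genes, 5.98, as the floor no bound can be given, since the PC-3/S mean (5.86) lay under it. Its second probe set was at or under the floor in both lines and did not separate them (-0.03), so that HOXB6 was no longer called once the _s_at and _x_at types were dropped (adjusted p = 0.832). Both measured genes of paralog group 6 were thus lower in PC-3/Mc on the probe set used for the gene, which ends in _s_at in each case. Among all genes 22.7% were lower, and with 2 genes the count describes these members only.

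The 3 measured genes of paralog group 13, the most posterior, were all called, where 45.9% of all genes were, but not in the same direction. HOXB13, a transcription factor of the prostate epithelium that acts with the androgen receptor, read 10.34, 10.27 and 10.35 in PC-3/Mc against 9.56, 9.55 and 9.55 in PC-3/S. Readings within each line were within 0.1 of each other and the lines stood clearly apart. The difference was 0.76 ± 0.07 (limma adjusted p = 7.4e-06), 1.70-fold. The other HOXB13 probe set gave 10.20 ± 0.04 (SD) and 8.94 ± 0.11, a difference of 1.26 or 2.39-fold.

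HOXD13, which patterns the digits and the urogenital tract, read 6.31, 6.07 and 6.26 in PC-3/Mc against 4.29, 4.57 and 4.46 in PC-3/S. Every PC-3/S reading was under the floor and every PC-3/Mc reading above it. The difference was 1.77 ± 0.10 (limma adjusted p = 1.2e-07), which puts PC-3/Mc at least 2.05-fold above, or 1.18-fold with the median of all genes as the floor. The other probe sets of HOXD13 also read higher in PC-3/Mc, by 0.80 and 1.29 as measured. The one that differed by 1.29 was at or under the floor in both lines (4.80 and 3.51), and the other barely reached it in PC-3/Mc (5.18 and 4.38), so that neither adds a fold.

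HOXC13, known for its role in hair and nail keratins, ran the opposite way. It read 4.62, 4.55 and 4.89 in PC-3/Mc against 6.42, 6.21 and 6.31 in PC-3/S. The PC-3/Mc readings all lay under the floor. The difference was -1.63 ± 0.10 (limma adjusted p = 3.1e-07), at least 2.20-fold lower, and 1.26-fold with the median of all genes as the floor. HOXC13, like HOXC6, rests on a single probe set ending in _s_at.

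The region before the start of HOXD13 is shown beside that of HOXD12, its neighbour in cluster D, because HOXD13 separated the lines while HOXD12 read at or under the floor in both (3.71 ± 0.12 and 3.63 ± 0.10, SD). Each window holds the 250 bases upstream of the RefSeq start (GRCh38.p14), both on the + strand, at chr2:176092471-176092720 for HOXD13 and chr2:176099545-176099794 for HOXD12. Capitals mark matches on either strand to the TATA box (TATAAA), the CCAAT box, the GC box (GGGCGG) and a core shared by HOX and PBX binding sites (TGATNNAT).
HOXD13: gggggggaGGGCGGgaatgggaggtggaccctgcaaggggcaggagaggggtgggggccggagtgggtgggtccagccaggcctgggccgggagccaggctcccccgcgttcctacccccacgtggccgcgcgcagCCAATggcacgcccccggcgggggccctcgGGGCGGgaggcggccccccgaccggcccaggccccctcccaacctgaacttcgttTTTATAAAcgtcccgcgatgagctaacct
HOXD12: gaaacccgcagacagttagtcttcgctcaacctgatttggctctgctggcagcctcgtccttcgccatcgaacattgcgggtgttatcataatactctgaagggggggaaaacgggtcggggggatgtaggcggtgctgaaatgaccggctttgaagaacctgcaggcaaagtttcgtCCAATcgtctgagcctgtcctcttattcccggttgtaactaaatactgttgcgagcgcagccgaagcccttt

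The HOXD13 window held overlapping TATAAA matches on the 2 strands, from 29 to 22 bases before the start, a CCAAT match and 2 GGGCGG matches. The HOXD12 window held 1 CCAAT match and none of the other motifs. TATAAA was found in 10.7% of 35116 RefSeq windows of this length, and HOXD13 alone had it among the 11 measured HOX genes with a window. CCAAT was found in 32.0% of all windows and in 9 of those 11, GGGCGG in 42.6% and 4, and TGATNNAT in 6.5% and 3. HOXC4 and HOXC5 have the same start in the table, so that their windows are one sequence counted for each gene. The windows of the 11 held 4 to 31 CG pairs with a median of 16, against 11 over all windows. These matches describe letters, not bound sites, and the table gives no start chosen for PC-3. HOXB2 to HOXB9, HOXB13, HOXC6, HOXC8 to HOXC13 and HOXD9 have no window in the table.

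By cluster, cluster B gave 6 lower, 1 higher and 3 not called of 10, cluster C 4 lower and 5 not called of 9, and cluster D 2 higher and 6 not called of 8. Median differences were -0.28, -0.12 and 0.06 in that order. In clusters B, C and D, 60%, 44.4% and 0% were lower and 10%, 0% and 25% higher. Among all genes, 22.7% were lower and 23.2% higher. HOXA2, a hindbrain and pharyngeal arch gene and the only measured member of cluster A, read 4.01 in both lines and was not called. By position, 2 of 5 measured genes with paralog numbers 1 to 3 were lower (40%). Of the 11 measured genes numbered 4 to 8, 5 were lower and 1 higher (45.5% and 9.09%). Of the 12 numbered 9 to 13, 3 were lower and 2 higher (25% and 16.7%). No difference between clusters or positions was tested, and with 8 to 10 genes a cluster the counts describe these members only.

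**Figure D2:**
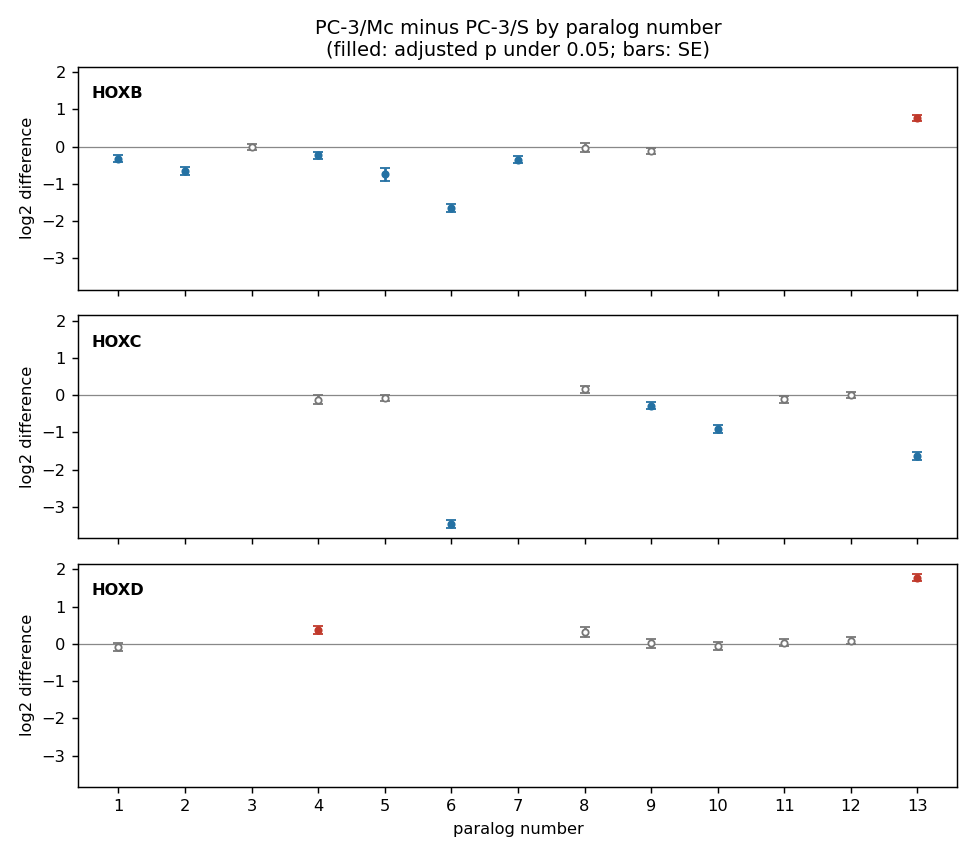
Log2 difference of each HOX gene, PC-3/Mc minus PC-3/S (vertical axes), against its paralog number (horizontal axis) in clusters B, C and D; filled points passed a limma adjusted p under 0.05, blue lower and red higher in PC-3/Mc, and bars are SE. HOXC6 at -3.46 and HOXD13 at 1.77 mark the extremes, and in group 13 clusters B and D lie above zero and cluster C below it.

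The remaining called genes of cluster B were HOXB1, HOXB2, HOXB4, HOXB5 and HOXB7, each lower in PC-3/Mc with a measured difference under 1 on the log2 scale. HOXB2, a hindbrain gene, read 4.62, 4.80 and 5.02 in PC-3/Mc against 5.53, 5.47 and 5.42 in PC-3/S, a difference of -0.66 ± 0.10 and at least 1.23-fold. HOXB5, active in gut and lung mesenchyme, read 5.49, 5.10 and 5.09 against 6.26, 6.07 and 5.58, and differed by -0.74 ± 0.17, at least 1.61-fold. On the probe sets used, the lines did not overlap for either gene, although PC-3/S replicate 3 came close to PC-3/Mc replicate 1 for HOXB5. The second HOXB5 probe set differed by -0.33, with arrays of the lines overlapping. It was not called (limma adjusted p = 0.0673 over all probe sets). HOXB7 read 4.92, 4.87 and 5.02 against 5.28, 5.37 and 5.20 (-0.35 ± 0.08). The other HOXB7 probe sets were at or under the floor in both lines. The set at 4.21 and 4.61 was called lower (-0.40), and the set at 3.80 and 3.92 was not called (-0.12). The calls of HOXB2, HOXB5 and HOXB7 stood under every alternative that held the gene.

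HOXB1, the most anterior gene of its cluster, read 4.98, 5.01 and 5.09 against 5.46, 5.44 and 5.15, and HOXB4, a regulator of blood stem cells, 6.02, 5.90 and 6.11 against 6.20, 6.35 and 6.17. Their differences of -0.32 ± 0.10 (adjusted p = 0.0199) and -0.24 ± 0.09 (adjusted p = 0.0493) were close to the threshold, with non-overlapping arrays separated by less than 0.1. HOXB1 kept its call under 6 of 12 alternatives and HOXB4 under 3 of 13. The other HOXB1 probe set was at or under the floor in both lines and did not separate them (0.006). HOXB8 (4.08 and 4.11) and HOXB9 (5.42 and 5.54), posterior genes of the cluster, were not called.

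HOXB3 depended on the probe set. The one used for the gene, brighter on average by a small margin, read 5.27 ± 0.12 (SD) in PC-3/Mc against 5.28 ± 0.07 in PC-3/S and was not called (adjusted p = 0.898). The other read 4.46, 4.25 and 4.07 in PC-3/Mc against 6.20, 6.14 and 6.40 in PC-3/S, a difference of -1.99 ± 0.11 (limma adjusted p = 4.9e-08 over all probe sets) and at least 2.10-fold. With this probe set counted for the gene, HOXB3 would join HOXB1, HOXB2, HOXB6 and HOXB7 as cluster B genes above the floor in PC-3/S alone.

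In cluster C, HOXC10, a gene of the lumbar region, differed by -0.91 ± 0.11 and HOXC9, a gene of the thoracic region, by -0.28 ± 0.09 (limma adjusted p = 3.3e-05 and 0.0250). Both were at or under the floor in both lines, at 4.12 and 5.03 for HOXC10 and 3.82 and 4.10 for HOXC9, so that no fold is given. The HOXC10 call stood under every alternative that held it, and that of HOXC9 under 6 of 12. The uncalled genes, with the mean in PC-3/Mc and then in PC-3/S, were HOXC4 (5.03 and 5.15), HOXC5 (5.16 and 5.23), HOXC8 (5.51 and 5.36), HOXC11 (5.16 and 5.27) and HOXC12 (4.87 and 4.85).

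Apart from HOXD13, cluster D stayed near or under the floor. HOXD4, a hindbrain gene, was called higher (0.37 ± 0.11, adjusted p = 0.0162) with readings of 5.12, 5.12 and 5.04 against 4.75, 4.93 and 4.50, all under the floor, and it kept the call under 8 of 12 alternatives. HOXD8 (5.16 and 4.84) fell short (adjusted p = 0.0800) and passed under 3 of 12. HOXD1 (4.72 and 4.81), HOXD9 (5.13 and 5.12), HOXD10 (4.16 and 4.22) and HOXD11 (4.63 and 4.59) were not called. Over the 15 uncalled HOX genes, the 95% intervals of the difference ran from -0.39 (HOXC4) to 0.61 (HOXD8) at their widest, so that smaller differences remain possible. The intervals hold for the probe sets used, and the other HOXB3 probe set, at -1.99, lies outside them. Where both lines were at or under the floor, an interval does not bound the difference in RNA.

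Of the 13 HOX genes with more than 1 probe set, 7 had probe sets that differed in call. That share was not computed for all 10523 genes with more than 1 probe set, so it cannot be called particular to HOX genes. Over all 44 probe sets, 11 were lower, 7 higher and 26 not called, where 35.9% of the 54613 probe sets tested were called, 17.5% lower and 18.4% higher. In both lines 24 of the 44 were at or under the floor. One of the 3 HOXD10 probe sets, at 4.23 and 3.84 and thus under the floor, was called higher by 0.39 while the others were not.

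**Figure D3:**
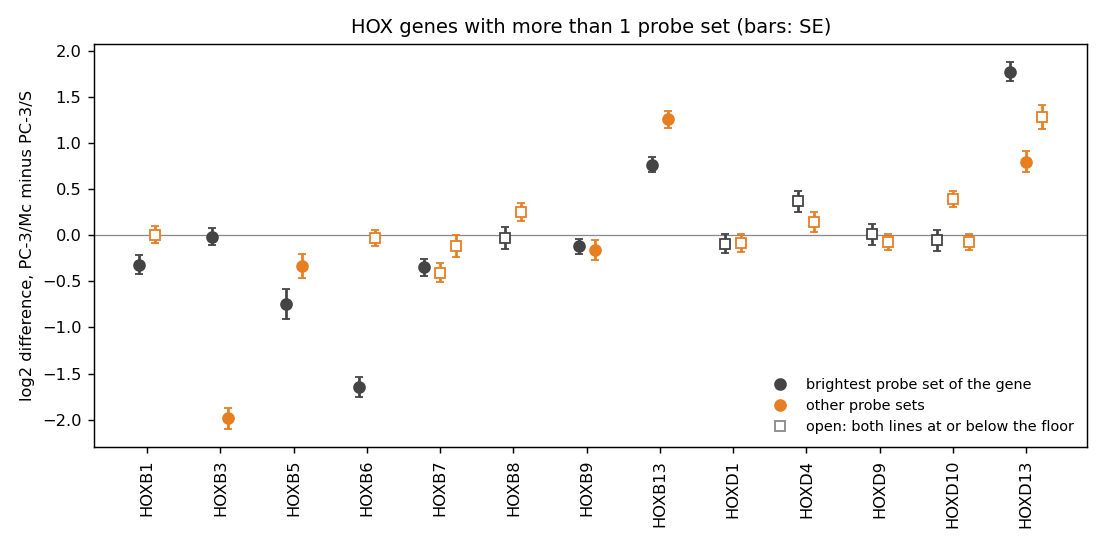
Log2 difference, PC-3/Mc minus PC-3/S, of every probe set of the 13 HOX genes with more than 1 (horizontal axis); dark points are the brightest probe set of the gene, orange points the others, open squares have both lines at or under the floor of 5.18, and bars are SE. The probe sets of HOXB13 and of HOXD13 all lie above zero, 1 of HOXD13 at or under the floor in both lines, whereas those of HOXB3 stand at -0.02 and -1.99 and those of HOXB6 at -1.65 and -0.03.

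Of 15 measured genes that flank the clusters, 8 were higher, 4 lower and 3 not called (median 0.21), or 53.3% higher and 26.7% lower against 23.2% and 22.7% of all genes. In both lines 13 of the 15 read above the floor, and the shares were not matched for level. PRAC1, a small prostate-expressed gene next to HOXB13, read 10.52, 10.60 and 10.56 in PC-3/Mc against 10.26, 10.20 and 10.13 in PC-3/S, higher by 0.36 ± 0.08. TTLL6, a tubulin glutamylase gene on the other side of HOXB13, was higher by 0.98 ± 0.10 (at least 1.62-fold). CALCOCO2, an autophagy receptor gene beyond TTLL6, was lower by 0.54 on the log2 scale (9.55 and 10.09), and SKAP1, past the other end of cluster B, was lower by 0.38 with both lines under the floor (4.10 and 4.48). CBX5, which encodes the heterochromatin protein HP1 alpha, was higher by 1.97 ± 0.11. LNPK, beyond HOXD13, was lower by 0.48 on the log2 scale.

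Of 12 measured non-coding transcripts of the clusters, 7 were at or under the floor in both lines and 4 above it in both. HOXA11-AS was lower (-0.39 ± 0.10, 5.13 and 5.51) and 11 were not called, among them HOTAIR (3.28 and 3.47), a transcript of cluster C known for Polycomb recruitment, HOTTIP (5.66 and 5.82) and HOXD-AS2 (6.83 and 6.84). The arrays' ability to tell strands apart was not tested, and antisense readings are uncertain where transcripts overlap.

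Of the TALE partners of HOX proteins, 8 were measured and all read above the floor in both lines. PBX3 was higher (0.68 ± 0.08, 7.26 and 6.58) and MEIS2 lower (-0.48 ± 0.08, 7.73 and 8.22), while the other 6 were not called. Of 18 Polycomb genes 8 were higher, 8 were lower and 2 were without a call, so that 88.9% were called against 45.9% of all genes. Of the 18, 17 read above the floor in both lines, where 34.8% of all genes were at or under it in both. CBX7, a chromodomain subunit of Polycomb complex 1, was lower by 1.40 on the log2 scale (5.89 and 7.28, 2.63-fold). EZH2, the H3K27 methyltransferase, was higher by 0.85 ± 0.11 and KDM2B, which recruits a variant Polycomb complex to CpG islands, by 0.78 ± 0.07.

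Among Trithorax genes and H3K27 demethylases, 5 were higher, 2 lower and 6 not called of 13. PSIP1, which tethers the menin and MLL complex to chromatin, was higher by 1.49 ± 0.08 and the scaffold WDR5 by 0.98 ± 0.08. The H3K27 demethylase genes KDM6A (-0.87 ± 0.11) and KDM6B (-0.51 ± 0.08) were lower. Of 15 CDX and retinoic acid genes, known upstream regulators of HOX clusters, 4 were higher, 1 lower and 10 not called. ALDH1A2, which makes retinoic acid, was higher by 4.81 ± 0.10 (at least 14.5-fold), CRABP2, which carries it to the nucleus, by 1.95 ± 0.09, and GDF11, a signal for posterior HOX expression, by 1.13 ± 0.10. Of the same enzyme family, ALDH1A3 read high in both lines (12.20 and 12.26) and ALDH1A1 under the floor (3.61 and 3.46), and neither was called. Of the receptor genes on the list, RXRA was higher by 0.42 and RXRB lower by 0.31 on the log2 scale. RARA, RARG and RARB were not called, RARB (4.58 and 4.44) being under the floor. CYP26A1 (4.73 and 4.75) was also under the floor and not called. Against the 45.9% of all genes, the share called was 25% of the TALE, 53.8% of the Trithorax and demethylase, 33.3% of the CDX and retinoic acid and 8.33% of the non-coding list. The lists differ from all genes in level, and none of these shares was matched for it. Any part of these genes in the HOX differences was not tested.

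**Figure D4:**
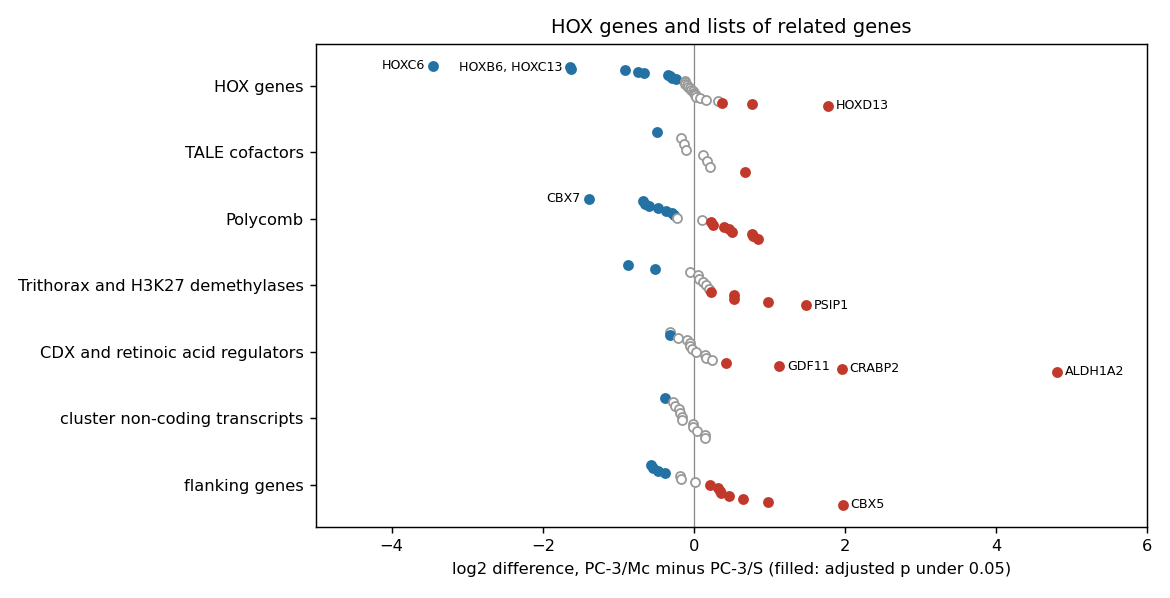
Log2 difference, PC-3/Mc minus PC-3/S (horizontal axis), of each gene in the HOX group and 6 lists of related genes (vertical axis); filled points passed a limma adjusted p under 0.05, blue lower and red higher in PC-3/Mc, and called genes of at least 2-fold are named. HOX genes reach from -3.46 (HOXC6) to 1.77 (HOXD13), while 11 of 12 cluster non-coding transcripts were not called.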

How the data were processed

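The starting point was the authors' deposited table of log2 expression values, 54675 probe sets on 6 one-colour arrays. The sources used here do not state how they were background-corrected and scaled; base 2 was inferred from the range (2.59 to 14.45). Names came from the annotation of the platform, where 41091 probe sets had 1 symbol; 3 with a HOX gene and further symbols were left out. For each of 19775 genes the probe set brightest on average stood for the gene, and probe set levels of different genes were not compared. The test was limma 3.58.1 (lmFit and eBayes under R 4.3.3), two-sided and without covariates, run over all genes and separately over 54613 probe sets without the 62 controls, with Benjamini-Hochberg adjustment; the scripts were tested on simulated data. Per-array values are given for called HOX genes above the floor; other lists name called members of at least 2-fold and up to 3 more by size, and names beyond that were chosen after their values were seen. Members and lists were chosen with earlier results of these data known. Same-numbered arrays of the lines did not deviate together (correlations -0.02, -0.26 and -0.38 over all genes), so numbers were not treated as pairs. Differently numbered arrays gave -0.13 to 0.34, the highest for PC-3/Mc replicate 3 with PC-3/S replicate 2, and a batch shared under other numbers was not tested. The number of arrays limits the precision. Sequences are from RefSeq tables matched by symbol.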

Additional observations from a re-analysis of the deposited data

How the results depend on the processing

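Of 334 comparisons of a count with an alternative, over 30 counts, 292 stayed within 1.5 times the reported count and 42 did not; none of the 28 genes reversed a call. HOXB2, HOXB5, HOXB7, HOXB13, HOXC6, HOXC10, HOXC13 and HOXD13 kept their calls under every alternative that held them. Many members lie close to the background, which limits what small differences show. With genes below the 40th percentile of level left out, 8 HOX genes remained: 4 were lower (2 in cluster B, 2 in cluster C; 0 of paralogs 1 to 3, 3 of 4 to 8, 1 of 9 to 13), and 1 of cluster D and 0 of paralogs 4 to 8 higher. With the _s_at and _x_at types of probe set dropped, 24 HOX genes remained, without HOXB5, HOXB7, HOXC6 and HOXC13: 5 were lower (3 in cluster B, 2 in cluster C, 0 of paralogs 4 to 8), 1 of them at least 2-fold, with 5 probe sets lower; 4 Polycomb and 3 Trithorax genes were higher, 0 TALE genes and 1 Trithorax gene lower. With the mean of all probe sets, 2 HOX genes were higher by at least 2-fold, 1 in cluster D and 0 of paralogs 4 to 8. Quantile normalization and median centring each gave 2 higher genes of paralogs 4 to 8, through HOXD8, and quantile normalization gave 2 higher TALE genes. With the replicate block 1 gene of paralogs 1 to 3 was lower, and 7 HOX genes in all; HOXB1 (adjusted p = 0.0536), HOXB4 (0.117) and HOXC9 (0.0577) lost their calls, and the numbers do not pair the arrays. With 1 array left out, HOX genes lower ranged from 7 to 10 and higher from 2 to 4, cluster D higher from 1 to 3, paralogs 4 to 8 higher from 0 to 2, paralogs 1 to 3 lower from 1 to 2, TALE genes from 1 to 2 in either direction, CDX and retinoic acid genes lower from 1 to 3 and non-coding transcripts lower from 1 to 3. The causes of these shifts were not tested.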

Other observations

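Homeobox genes of selected families of the same class, outside the clusters, gave 38 measured genes. The list was drawn up after the HOX values were seen. It does not hold the whole class, and EVX1 and the CDX genes, counted above, are not on it. Of the 38, 4 were higher in PC-3/Mc, 7 lower and 27 not called, with a median difference of -0.05. The share called was 28.9%, against 45.9% of all genes. Of the 38, 20 were at or under the floor in both lines, and the shares were not matched for level. GBX2, a gene of the midbrain and hindbrain boundary, read 4.31, 4.40 and 4.36 in PC-3/Mc against 8.69, 8.73 and 8.90 in PC-3/S, at least 12.1-fold lower in PC-3/Mc (limma adjusted p = 3.9e-11). HHEX, a homeobox gene of endoderm and blood vessels, was higher by 1.98 ± 0.09, and MSX1, a gene of limb and craniofacial mesenchyme, by 1.45 ± 0.10. DLX1, whose RNA is measured with that of HOXC6 in urine tests for prostate cancer, read 9.35 ± 0.12 (SD) in PC-3/Mc against 8.66 ± 0.12 in PC-3/S, higher by 0.68, the opposite direction to HOXC6. The other called genes were NKX2-8 (0.62), higher, and DLX2 (-0.46), EN1 (-0.49), EN2 (-0.47), VAX2 (-0.42), NKX1-1 (-0.30) and NKX6-3 (-0.29), lower.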
